A study of Mus musculus with 12 samples.

Results

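The genes described here were 10 genes of serine synthesis, mitochondrial folate metabolism and the ATF4 stress response, measured by bulk RNA-seq in microglia sorted from mouse brain after stroke or sham surgery. They were taken as every row of the deposited count tables that carried the symbol *Psat1*, *Phgdh*, *Psph*, *Shmt2*, *Mthfd2*, *Asns*, *Atf4*, *Trib3*, *Slc7a11* or *Ddit3*. Of 55401 gene rows, 11 matched, because *Ddit3* had a second identifier nested in the first that held no read in any library. The other 10 rows were all among the 16451 genes with enough counts to be tested. The genes were selected by function with earlier results of these data known, and *Psat1* was chosen by its measured counts, whose response to surgery differed between genotypes, so its values are given as a description with no test, and counts of called genes below cover the other 9. The symbols and positions given here are from GENCODE M21 on GRCm38, where the 10 genes lie on chromosomes 2, 3, 5, 6, 10, 15 and 19.

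The 12 libraries formed 4 groups of 3. WT mice were *Cx3cr1* wt/wt and *Hdac3* loxp/loxp, and miKO mice (*Hdac3* knockout in the labels) were *Cx3cr1* CreER/wt and *Hdac3* loxp/loxp, so that both genotypes carried the floxed alleles but miKO mice also lacked 1 working copy of *Cx3cr1*, which drives the CreER. The mice were male, tamoxifen was given at 6 to 8 weeks of age, and surgery followed at least a month later. WT-tFCI and miKO-tFCI mice had a transient focal cerebral ischemia (tFCI) by occluding the left middle cerebral artery for 60 min, and WT-Sham and miKO-Sham mice were operated on without occlusion. CD45int CD11b+ cells were isolated on day 3, and each replicate combined cells from 3 to 4 hemispheres, so the p-values describe the spread between pools of animals. The effect of *Hdac3* loss and that of the CreER allele cannot be told apart in this design.

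Between 7697864 and 9452222 counts per library lay on genes. *Hdac3*, the histone deacetylase that was targeted, was lower in miKO-Sham vs. WT-Sham (log2 fold change -0.81, SE 0.16) and in miKO-tFCI vs. WT-tFCI (-0.71, SE 0.16), with no overlap between the groups. The summed level of 10 microglial markers was 29282 to 38678 CPM (counts scaled to each library's normalized total) in WT-Sham, 27254 to 32296 in miKO-Sham, 20942 to 23284 in WT-tFCI and 10484 to 20267 in miKO-tFCI. The summed level of 10 monocyte and macrophage markers was 15.4 to 96.8, 61.7 to 122, 384 to 674 and 452 to 1011 CPM in the same order. *Fn1* made up 73.5% of the latter in WT-tFCI, and without it the sums were 15.2 to 93.5, 59.5 to 109, 81.4 to 228 and 316 to 653 CPM. In bulk samples a change in the number of cells of a type and a change in RNA per cell cannot be told apart. The counts of miKO-Sham replicates 1 and 2 were the closest pair of replicates (chi-square per degree of freedom 2.88, against 42.7 and 46.1 for the other pairs of that group and at least 3.87 elsewhere), and differed by more than sampling noise. Their deposited names share a sample code, although the labels give them as separate samples in different batches, so whether they are separate pools of animals is not settled and n = 3 in miKO-Sham may be 2. With their counts summed as 1 library, an alternative added after the data were seen, the same members were called in every comparison.

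Cells make serine from the glycolytic intermediate 3-phosphoglycerate in consecutive steps by PHGDH, which oxidises it, PSAT1, which adds an amino group from glutamate, and PSPH, which removes the phosphate. SHMT2 and MTHFD2 then pass a carbon unit of serine to folate in mitochondria for purine and thymidylate synthesis. ATF4 is the transcription factor of the integrated stress response. It is controlled largely at the level of translation when eIF2 is phosphorylated, and it is known to activate genes of serine synthesis and amino acid supply, among them *Psat1*, *Asns*, *Trib3*, *Slc7a11* and *Ddit3*.

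ATF4 binds as a dimer with C/EBP proteins to composite elements, so promoters were searched on both strands for TGATGNAA (TTNCATCA on the other strand) from 250 bases before to 50 bases after each RefSeq start on GRCm38.p6. All 10 genes had a window, and 3 of them (30%) held the letters, against 4.51% of 27025 genes with a window. The matches were in *Slc7a11*, *Asns* and *Trib3*, which are printed to show where the letters lie in the genes with the lowest levels in WT-Sham and some of the largest changes. Each sequence is on the strand of its gene, with the matched letters in capitals. For *Trib3* the match lay after the start, at position 15, and only the 30 bases around it are given. In *Slc7a11* the first bases of the matches were at positions -66 and -47 and in *Asns* at -23, where -1 is the base before the start.
Slc7a11, chr3:50443614-50443719, minus strand: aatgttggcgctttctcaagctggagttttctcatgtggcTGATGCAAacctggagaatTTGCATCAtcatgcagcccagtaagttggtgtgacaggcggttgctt
Asns, chr6:7693210-7693272, minus strand: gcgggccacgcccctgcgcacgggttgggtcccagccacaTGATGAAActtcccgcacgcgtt
Trib3, chr2:152344028-152344057, minus strand: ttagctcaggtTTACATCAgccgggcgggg
The letters were not found in the windows of the other 7 genes, *Psat1* included. *Slc7a11* held a match on each strand, 11 bases apart. Of other ATF4 targets 9 of 23 with a window (39.1%) held the letters, of aminoacyl-tRNA synthetases 5 of 13 (38.5%), and of other serine, glycine and folate enzymes 0 of 17.

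*Psat1* (chromosome 19: 15904678 to 15947337, minus strand) was low in WT-Sham, at 14.5, 21.2 and 16.2 CPM in replicates 1 to 3. In miKO-Sham it was at 100.1, 96.0 and 104 CPM, so that every miKO-Sham library was above every WT-Sham library. After tFCI it was at 135, 193 and 180 CPM in WT mice and at 113, 207 and 221 CPM in miKO mice, and these groups overlapped. The fitted log2 fold change was 3.28 (SE 0.19, 9.73-fold) in WT-tFCI vs. WT-Sham but 0.79 (SE 0.17, 1.73-fold) in miKO-tFCI vs. miKO-Sham. Between genotypes it was 2.56 (SE 0.18, 5.88-fold) in sham mice and 0.07 in tFCI mice, with a 95% interval from -0.29 to 0.42. The resulting interaction, the change with surgery in miKO mice minus that in WT mice, was -2.49 (SE 0.25), and 499 of the 16451 genes tested had a larger one in absolute size. As *Psat1* was chosen by these counts, the SEs, the interval and the rank do not allow for that choice and only describe them. Within sequencing batch 1, which held replicate 1 of each group, the interaction was -3.02, and within batch 2 it was -2.22. The change with surgery in miKO mice was smaller in batch 1 (0.17) than in batch 2 (1.10).

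**Figure D1:**
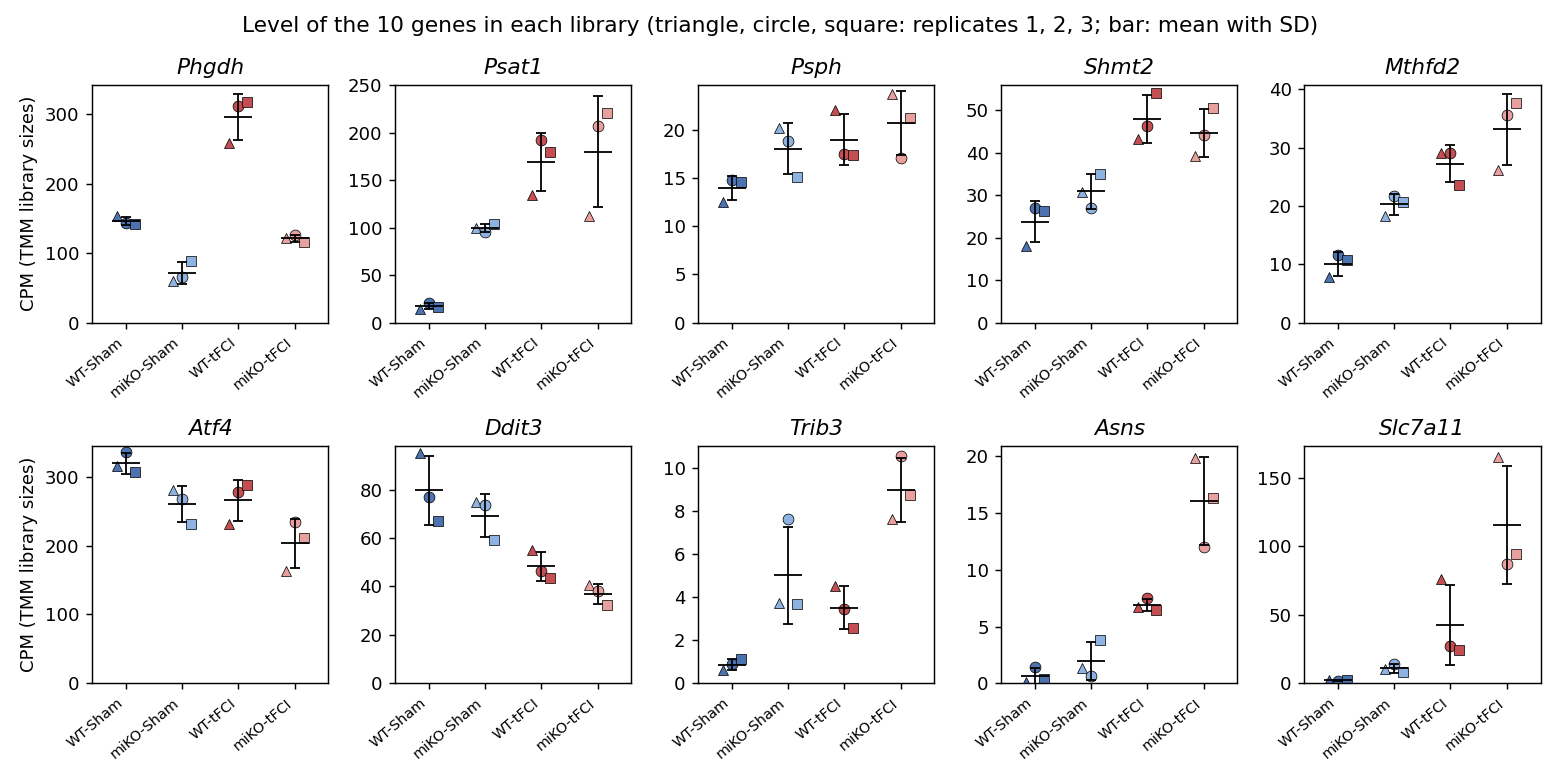
Level of each gene in each library (y axis: CPM with TMM library sizes, from 0) by group (x axis), with replicates 1, 2 and 3 as triangle, circle and square and the mean with SD (n = 3) as a bar. *Psat1* was at 14.5 to 21.2 CPM in WT-Sham and at 96.0 to 221 CPM in the other libraries, whereas *Phgdh* was at most at 126 CPM in the miKO libraries and at least at 142 CPM in the WT libraries.

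*Phgdh* (chromosome 3: 98313170 to 98339990, minus strand), whose enzyme catalyses the committed step of the pathway, moved with genotype in the other direction. It was at 154, 144 and 142 CPM in WT-Sham and at 59.4, 66.0 and 88.6 CPM in miKO-Sham. After tFCI it was at 258, 312 and 318 CPM in WT mice and at 122, 126 and 116 CPM in miKO mice. The groups overlapped in none of the 4 comparisons, and the miKO-tFCI libraries lay below the WT-Sham libraries. Genes were called where edgeR's quasi-likelihood test gave a Benjamini-Hochberg adjusted p under 0.05 over all 16451 genes and the log2 fold change was above 0.58 in absolute size. *Phgdh* was lower in miKO-Sham vs. WT-Sham (log2 fold change -1.05, SE 0.15, edgeR adjusted p = 1.41e-04) and in miKO-tFCI vs. WT-tFCI (-1.28, SE 0.15, edgeR adjusted p = 8.25e-05). It rose after tFCI in both genotypes, by 1.01 on the log2 scale in WT mice (edgeR adjusted p = 8.50e-05) and by 0.77 in miKO mice (edgeR adjusted p = 7.30e-04). Astrocytes are known for high *Phgdh*. The summed level of 10 astrocyte markers was 182 to 201 CPM in WT-Sham, 120 to 144 in miKO-Sham, 183 to 338 in WT-tFCI and 234 to 711 in miKO-tFCI. In the sham groups most of this was *Slc1a3*, a glutamate transporter (93.7% and 82.1%), and without it the sums were 7.73 to 17.2, 21.1 to 26.4, 68.5 to 238 and 180 to 625 CPM. Of the 10 markers 9 had an estimate above 0 in miKO-Sham vs. WT-Sham (median log2 fold change 1.02, 2 called higher), and *Slc1a3* was called lower. Of all genes 8.58% were called higher and 6.8% lower there. *Gfap* was at 0.326, 1.68, 46.3 and 142 CPM on average in the same order. *Slc1a3* was at 180, 109, 111 and 67.1 CPM on average in that order, so these markers of the list differed in direction. The part of astrocyte RNA in the level of *Phgdh* was not tested.

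*Psph* (chromosome 5: 129765558 to 129787449, minus strand), the last enzyme of the pathway, passed the test in none of the comparisons. It was at 12.5, 14.8 and 14.6 CPM in WT-Sham, at 20.1, 18.9 and 15.1 CPM in miKO-Sham, at 22.0, 17.4 and 17.4 CPM in WT-tFCI and at 23.7, 17.1 and 21.3 CPM in miKO-tFCI. Each of the other 3 groups lay above WT-Sham. The estimate furthest from 0 was 0.43 on the log2 scale (SE 0.18, edgeR adjusted p = 0.0745) in WT-tFCI vs. WT-Sham. Over 452 of its exon bases *Psph* overlaps *Cct6a* on the other strand, and the library kit is not stated to keep strand, so a part of its reads is uncertain.

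Per kilobase of exon the group means stood in the same order in all 4 groups, *Phgdh* above *Psat1* above *Psph*, but at different distances. The lengths join all annotated exons of a gene (2486, 4254 and 4329 bases), so the order and the ratio below depend on that annotation. In WT-Sham *Phgdh* was at 59.0 ± 2.46 CPM per kb (SD, n = 3), *Psat1* at 4.07 ± 0.811 and *Psph* at 3.22 ± 0.292. In miKO-Sham *Phgdh* was at 28.7 ± 6.16 and *Psat1* at 23.5 ± 0.955 CPM per kb. The ratio of *Psat1* to *Phgdh* per kb was 0.0553 to 0.0859 in WT-Sham, 0.687 to 0.984 in miKO-Sham, 0.304 to 0.361 in WT-tFCI and 0.540 to 1.11 in miKO-tFCI. The miKO libraries had the higher ratio within both kinds of surgery. This ratio rests in part on *Psat1* and is given with no test.

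**Figure D2:**
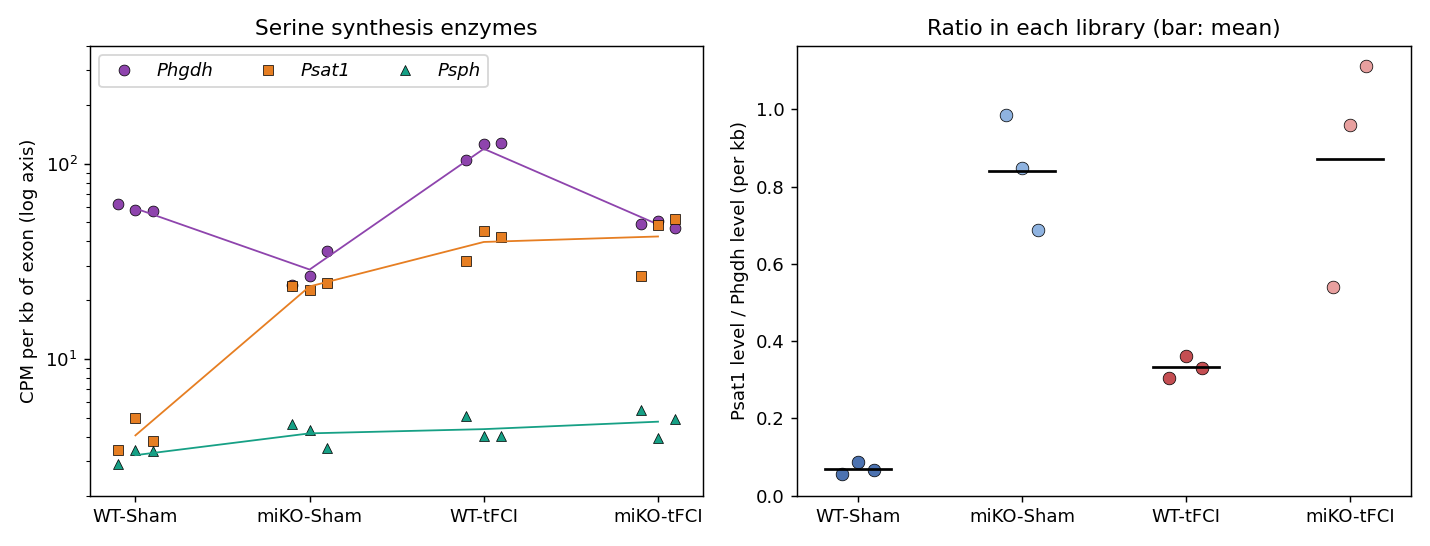
Left, level per kb of exon (log axis) of *Phgdh*, *Psat1* and *Psph* in each library by group, with lines through the group means. Right, ratio of *Psat1* to *Phgdh* per kb in each library (from 0, bar at the mean of 3), with all WT libraries at or below 0.361 and all miKO libraries at or above 0.540.

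*Mthfd2* (chromosome 6: 83305691 to 83325908, minus strand), a folate enzyme of mitochondria that is abundant in dividing cells, followed *Psat1* most closely among the 10 genes. It was at 7.81, 11.7 and 10.7 CPM in WT-Sham and at 18.3, 21.8 and 20.7 CPM in miKO-Sham, without overlap. After tFCI it was at 29.1, 29.1 and 23.6 CPM in WT mice and at 26.2, 35.6 and 37.6 CPM in miKO mice, with overlap. It was higher in miKO-Sham vs. WT-Sham by 1.02 on the log2 scale (SE 0.18, edgeR adjusted p = 9.95e-04) and rose after tFCI by 1.46 in WT mice (SE 0.18, edgeR adjusted p = 1.97e-05) and by 0.70 in miKO mice (SE 0.17, edgeR adjusted p = 0.00444). Between the tFCI groups the estimate was 0.26, with a 95% interval from -0.10 to 0.62.

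*Shmt2* (chromosome 10: 127517123 to 127522444, minus strand), which splits serine to glycine in mitochondria, was at 18.2, 27.0 and 26.3 CPM in WT-Sham and at 43.3, 46.4 and 54.2 CPM in WT-tFCI. It rose in WT mice by 1.02 on the log2 scale (SE 0.15, edgeR adjusted p = 1.38e-04). In miKO mice it was at 30.8, 26.9 and 35.1 CPM after sham surgery and at 39.3, 44.2 and 50.5 CPM after tFCI. These groups did not overlap, but the estimate of 0.52 (SE 0.15, edgeR adjusted p = 0.0135) was under the fold threshold of 0.58, and it passed without miKO-Sham replicate 1 (0.63, edgeR adjusted p = 0.0141). The genotypes overlapped within sham and within tFCI mice. Beside both folate genes, 13 proliferation markers moved with surgery. Their summed level was 121 to 129 CPM in WT-Sham, 149 to 171 in miKO-Sham, 831 to 1058 in WT-tFCI and 556 to 771 in miKO-tFCI. Their part in the levels of *Mthfd2* and *Shmt2* was not tested.

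*Atf4* itself (chromosome 15: 80255184 to 80257541, plus strand) did not pass the test in any comparison. It was at 316, 336 and 307 CPM in WT-Sham, at 281, 268 and 231 CPM in miKO-Sham, at 232, 278 and 288 CPM in WT-tFCI and at 164, 235 and 211 CPM in miKO-tFCI. The WT-Sham libraries lay above all others, and the 4 estimates were between -0.27 and -0.39 on the log2 scale with SE of 0.14 to 0.15. The edgeR adjusted p of *Atf4* nearest to the threshold was 0.0528, in miKO-tFCI vs. miKO-Sham.

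*Ddit3* (chromosome 10: 127290774 to 127296288, plus strand), which encodes CHOP, a transcription factor linked to cell death under prolonged stress, was the only one of the 9 genes called lower after surgery. It was at 95.0, 77.0 and 67.1 CPM in WT-Sham and at 55.2, 46.2 and 43.6 CPM in WT-tFCI, a decrease by 0.72 on the log2 scale (SE 0.13, edgeR adjusted p = 6.34e-04). In miKO mice it was at 74.8, 73.7 and 59.2 CPM after sham surgery and at 40.5, 38.2 and 32.5 CPM after tFCI, a decrease by 0.90 (SE 0.13, edgeR adjusted p = 1.03e-04). Between the tFCI groups it was at -0.38 (edgeR adjusted p = 0.0873) without overlap, and between the sham groups at -0.19 with overlap. Over 186 of its exon bases *Ddit3* overlaps other genes, among them *Mars* on the other strand. Of 13 immediate early and dissociation genes, which respond to cell isolation, 11 were called lower after tFCI in WT mice and 12 in miKO mice. Of all genes 11.7% and 13.9% were called lower in these comparisons. The sum of the 13 genes was 39695 to 44267 CPM in WT-Sham, 25230 to 27424 in miKO-Sham, 15027 to 16926 in WT-tFCI and 8019 to 10373 in miKO-tFCI. The part of the isolation response in the levels of *Ddit3* and *Atf4* was not tested.

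**Figure D3:**
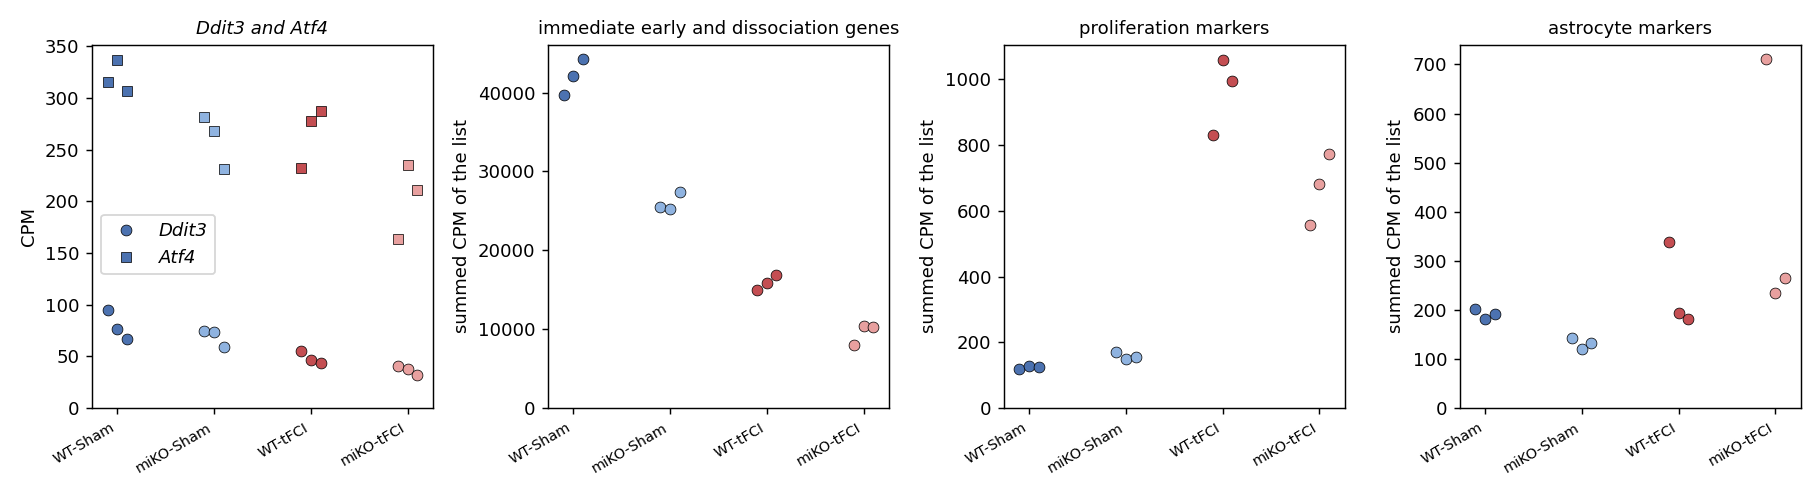
*Ddit3* and *Atf4* in CPM (left) and the summed CPM of immediate early and dissociation genes, proliferation markers and astrocyte markers (other panels) in each library, by group, all axes from 0. The immediate early sum was 39695 to 44267 CPM in WT-Sham and 8019 to 10373 CPM in miKO-tFCI, the groups in which *Ddit3* had its highest and lowest mean.

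*Slc7a11* (chromosome 3: 49892526 to 50443614, minus strand), the cystine and glutamate exchanger that supplies cysteine for glutathione, was called higher in every comparison between groups. It was at 2.52, 1.79 and 2.26 CPM in WT-Sham, at 10.4, 14.3 and 8.07 CPM in miKO-Sham, at 76.2, 27.0 and 24.7 CPM in WT-tFCI and at 165, 87.0 and 94.5 CPM in miKO-tFCI. No groups overlapped, and replicate 1 was the highest library after tFCI in both genotypes. The same libraries were also the highest of their groups in markers of astrocytes, endothelial cells, monocytes and macrophages, oligodendrocytes, neurons, and B and T cells. They were the lowest in markers of microglia, border-associated macrophages, neutrophils and proliferation, and in immediate early and dissociation genes. Microglial markers summed to 10484 CPM in miKO-tFCI replicate 1, against 16985 in replicate 2 and 20267 in replicate 3. For WT-tFCI the corresponding sums were 20942, 23284 and 22974. WT-tFCI replicates 1 to 3 had astrocyte sums of 338, 193 and 183 CPM and endothelial sums of 254, 86.8 and 82.5 CPM. In miKO-tFCI these were 711, 234 and 264 CPM and 467, 161 and 160 CPM. The part of these cells in the level of *Slc7a11* was not tested. The increase with surgery was 4.15 on the log2 scale (SE 0.33, 17.7-fold, edgeR adjusted p = 3.30e-07) in WT mice and 3.32 (SE 0.28, 9.98-fold, edgeR adjusted p = 7.84e-07) in miKO mice. The miKO libraries were higher by 2.35 (SE 0.35, 5.11-fold, edgeR adjusted p = 2.69e-04) after sham surgery and by 1.53 (SE 0.25, 2.88-fold, edgeR adjusted p = 0.00173) after tFCI. The difference after tFCI was 1.11 within batch 1 and 1.80 within batch 2, which leaves out both replicates 1, and without the batch term its edgeR adjusted p was 0.0541.

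*Trib3* (chromosome 2: 152337422 to 152344032, minus strand), a pseudokinase induced by ATF4 and CHOP, was at 0.601, 0.896 and 1.13 CPM in WT-Sham. It was at 3.75, 7.63 and 3.71 CPM in miKO-Sham, at 4.55, 3.46 and 2.56 CPM in WT-tFCI and at 7.64, 10.6 and 8.77 CPM in miKO-tFCI. Every library of the other 3 groups was above WT-Sham, and every miKO-tFCI library was above the rest, its lowest next to the highest of miKO-Sham. It was higher in miKO-Sham vs. WT-Sham by 2.49 (SE 0.43, edgeR adjusted p = 8.79e-04) and in WT-tFCI vs. WT-Sham by 2.01 (SE 0.44, edgeR adjusted p = 0.00237). In miKO-tFCI vs. WT-tFCI it was called at 1.32 (SE 0.37, edgeR adjusted p = 0.0360). This last call was lost without WT-tFCI replicate 2 (edgeR adjusted p = 0.135) or 3 (0.179), without miKO-tFCI replicate 1 (0.0684), 2 (0.0928) or 3 (0.0693), and without the batch term (0.0649). In miKO-tFCI vs. miKO-Sham the estimate was 0.84 (edgeR adjusted p = 0.0765), and without miKO-Sham replicate 2 it was 1.25 (edgeR adjusted p = 0.0210).

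*Asns* (chromosome 6: 7675169 to 7693254, minus strand), which makes asparagine, was near the limit of detection in sham mice. It was at 0.120, 1.46 and 0.410 CPM in WT-Sham (1, 13 and 4 counts) and at 1.39, 0.694 and 3.84 CPM in miKO-Sham. After tFCI it was at 6.70, 7.50 and 6.46 CPM in WT mice and at 19.8, 12.1 and 16.3 CPM in miKO mice. It rose by 3.36 on the log2 scale in WT mice (SE 0.61, edgeR adjusted p = 6.16e-04) and by 3.03 in miKO mice (SE 0.54, edgeR adjusted p = 4.74e-04). The tFCI groups did not overlap, but the estimate of 1.24 (SE 0.48) did not pass the test (edgeR adjusted p = 0.117), except without the filter on low counts (0.00597) or in a fit of those groups alone (0.00155). The sham groups overlapped, and the estimate of 1.57 (edgeR adjusted p = 0.124) passed without WT-Sham replicate 2 (2.77, edgeR adjusted p = 0.0313), without miKO-Sham replicate 2 (2.00, edgeR adjusted p = 0.0482) or without the filter (edgeR adjusted p = 0.0129).

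Of the 9 genes other than *Psat1*, 6 were called higher (*Phgdh*, *Shmt2*, *Mthfd2*, *Trib3*, *Asns* and *Slc7a11*) and 1 lower (*Ddit3*) in WT-tFCI vs. WT-Sham, where 32.6% of all genes tested were called, 20.9% higher and 11.7% lower. In miKO-tFCI vs. miKO-Sham 4 were called higher and 1 lower, against 35.8% of all genes (21.9% higher and 13.9% lower). In miKO-Sham vs. WT-Sham 3 were called higher (*Mthfd2*, *Trib3* and *Slc7a11*) and 1 lower (*Phgdh*), against 15.4% (8.58% higher and 6.8% lower). In miKO-tFCI vs. WT-tFCI 2 were called higher (*Trib3* and *Slc7a11*) and 1 lower (*Phgdh*), against 8.79% (4.08% higher and 4.71% lower), and without the batch term only *Phgdh* was called. The median log2 fold change of the 9 genes was 1.02, 0.70, 0.39 and 0.13 in these comparisons, and that of all genes tested 0.02, 0.03, 0.04 and 0.04. In WT-tFCI vs. WT-Sham the groups did not overlap for 7 genes that were higher and 2 that were lower, against 26.9% and 22.9% of all genes (49.8% in either direction), and in miKO-tFCI vs. miKO-Sham for 6 and 1, against 26.5% and 21.6% (48.2%). In miKO-Sham vs. WT-Sham they did not overlap for 4 and 2, against 17% and 16.2% (33.2%), and in miKO-tFCI vs. WT-tFCI for 3 and 2, against 9.58% and 13.3% (22.9%). The comparisons share groups, so their counts are not independent of one another.

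In the interaction of genotype and surgery, 0 of the 9 were called by edgeR at an adjusted p under 0.05, where 3.82% of all genes were, 1.25% above and 2.57% below 0. At an unadjusted p under 0.05 there were 2 in edgeR (*Mthfd2* and *Shmt2*), and in DESeq2 0 were called and 1 was under 0.05 unadjusted. All 9 estimates were below 0, with a median of -0.33 against -0.02 for all genes. *Trib3* was at -1.16 (SE 0.57), *Slc7a11* at -0.83 (SE 0.44), *Mthfd2* at -0.76 (SE 0.25), *Shmt2* at -0.50 (SE 0.22) and *Phgdh* at -0.23 (SE 0.20). The edgeR adjusted p of *Mthfd2* was 0.112. The estimate of *Asns* was -0.33 (SE 0.79), but 0.60 without miKO-Sham replicate 3 and 0.11 without WT-Sham replicate 1. That of *Atf4* was -0.10 (SE 0.20), but 0.05 without miKO-Sham replicate 1 and 0.01 without miKO-tFCI replicate 1. No member tested thus passed for the difference that *Psat1* was chosen for, and the intervals of *Trib3* and *Slc7a11*, from -2.37 to 0.05 and from -1.76 to 0.11, are wide.

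**Figure D4:**
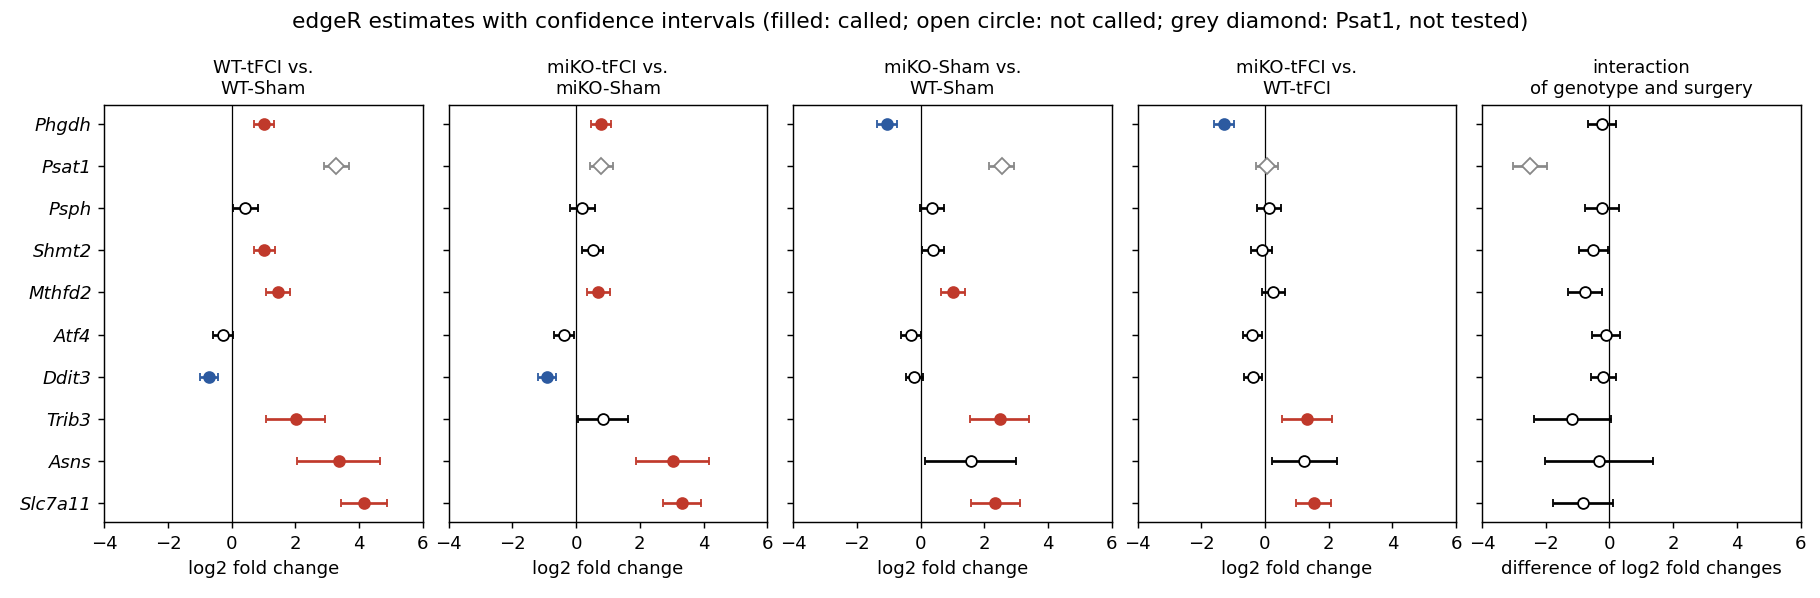
Fitted log2 fold change of each gene with its 95% interval (x axis) in the 4 comparisons between groups, and the difference of log2 fold changes in the interaction (right panel). Filled circles were called, open circles were not and the grey diamond is *Psat1*, given with no test. *Slc7a11* was called in all 4 comparisons and *Phgdh* higher with surgery but lower in miKO, at -1.05 and -1.28.

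Per kb of exon, *Atf4* had the highest level of the 10 genes in WT-Sham, at 136 ± 6.47 CPM per kb, above *Phgdh* at 59.0 ± 2.46, *Ddit3* at 46.5 ± 8.25, *Shmt2* at 7.66 ± 1.58, *Psat1* at 4.07 ± 0.811, *Psph* at 3.22 ± 0.292 and *Mthfd2* at 2.88 ± 0.572 (SD, n = 3). *Trib3* at 0.412 ± 0.124, *Asns* at 0.242 ± 0.257 and *Slc7a11* at 0.157 ± 0.0266 CPM per kb were the lowest. The ranges of mean ± SD of *Psat1*, *Psph* and *Mthfd2* overlapped, as did those of *Trib3* and *Asns*. Every *Psat1* library of WT-Sham (3.419 CPM per kb or more) nevertheless lay above every *Psph* library (3.416 or less). In WT-tFCI *Phgdh* (119 ± 13.1) and *Atf4* (113 ± 12.5) lay within each other's spread at the top, followed by *Psat1* (39.7 ± 7.18 CPM per kb). In rank per length *Psat1* was above 51.8% of tested genes in WT-Sham, 86.6% in miKO-Sham, 92.0% in WT-tFCI and 92.2% in miKO-tFCI. *Slc7a11* was above 9.39%, 22.0%, 44.7% and 68.2% in the same order, and *Atf4* above 96.4% or more in all 4 groups.

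The other genes of these pathways were counted from lists written from general knowledge. Of all genes tested, 20.9% were called higher and 11.7% lower in WT-tFCI vs. WT-Sham, and 21.9% and 13.9% in miKO-tFCI vs. miKO-Sham. In miKO-Sham vs. WT-Sham these shares were 8.58% and 6.8%, and in miKO-tFCI vs. WT-tFCI 4.08% and 4.71%. The counts of this list and of those that follow are to be read beside these shares. Of 20 tested genes of serine, glycine and folate metabolism, 4 were called higher and 2 lower in WT-tFCI vs. WT-Sham (median log2 fold change 0.44, against 0.02 for all genes), and 5 and 2 in miKO-tFCI vs. miKO-Sham (median 0.30). In miKO-Sham vs. WT-Sham 2 were higher and 1 lower (median -0.24), and in miKO-tFCI vs. WT-tFCI 0 were higher and 1 lower (median 0.20). *Tyms*, thymidylate synthase, was at 16.1, 13.2 and 13.7 CPM in WT-Sham, at 11.9, 6.94 and 9.35 CPM in miKO-Sham, at 49.8, 54.5 and 41.4 CPM in WT-tFCI and at 32.2, 40.7 and 40.2 CPM in miKO-tFCI. It rose after tFCI by 1.76 on the log2 scale in WT mice (SE 0.19, edgeR adjusted p = 6.06e-06) and by 2.01 in miKO mice (SE 0.20, edgeR adjusted p = 3.24e-06), and the part of the proliferation markers in it was not tested. In miKO-Sham vs. WT-Sham *Tyms* was at -0.61, just short of a call in edgeR (adjusted p = 0.0501), and it was called in DESeq2 and, in edgeR, without miKO-Sham replicate 1 or miKO-tFCI replicate 1 (adjusted p = 0.0262 and 0.0297). *Shmt1*, the cytosolic counterpart of SHMT2, was at 12.5, 6.39 and 5.54 CPM in WT-Sham and at 16.1, 18.7 and 11.8 CPM in miKO-Sham, with overlap. It was called higher in miKO-Sham by 0.95 (SE 0.31, edgeR adjusted p = 0.0431), a call kept in 4 of the 12 fits with a library left out, those without WT-Sham replicate 1, miKO-Sham replicate 3 or miKO-tFCI replicate 1 or 3, and lost in the other 8 (edgeR adjusted p = 0.0506 to 0.197). It was also lost with the replicate block, with no batch term and with miKO-Sham replicates 1 and 2 summed. Methionine synthase, *Mtr*, was the gene that fell in miKO-tFCI vs. WT-tFCI, by 0.64 on the log2 scale (SE 0.15, edgeR adjusted p = 0.0164), a call lost without WT-tFCI replicate 1 or 2 or without miKO-tFCI replicate 1 (edgeR adjusted p = 0.0520 to 0.0758). *Dld*, a subunit of the glycine cleavage system, was at 0.19 in WT-tFCI vs. WT-Sham and at 0.01 in miKO-Sham vs. WT-Sham and was not called in any comparison. *Cbs*, which condenses serine with homocysteine, was at most at 1.08 CPM in the sham libraries and at 5.68, 2.01 and 1.61 CPM in miKO-tFCI, and was called higher in miKO-tFCI vs. miKO-Sham (edgeR adjusted p = 9.77e-04). The astrocyte marker sums of the same miKO-tFCI libraries were 711, 234 and 264 CPM. The part of astrocyte RNA in the levels of *Cbs* and of the other genes of this list was not tested.

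Of 22 other tested ATF4 targets, 12 were called higher and 0 lower in WT-tFCI vs. WT-Sham (median 0.74), against 20.9% and 11.7% of all genes. In miKO-tFCI vs. miKO-Sham 11 and 2 were (median 0.76), against 21.9% and 13.9%. Between genotypes, 6 were higher and 3 lower in sham mice (median -0.14), against 8.58% and 6.8%. In tFCI mice 0 were higher and 2 lower (median 0.14), against 4.08% and 4.71%. *Gdf15*, a secreted stress cytokine, was at 8.17, 5.15 and 8.72 CPM in WT-Sham, at 33.7, 41.1 and 23.8 CPM in miKO-Sham, at 29.7, 39.5 and 42.3 CPM in WT-tFCI and at 38.8, 78.7 and 65.7 CPM in miKO-tFCI. Its WT-Sham libraries were thus below all others, and it was higher by 2.16 (SE 0.27, edgeR adjusted p = 5.46e-05) in miKO-Sham vs. WT-Sham. *Atf3*, a stress-induced transcription factor that also belongs to the immediate early response, was the most abundant of the list, at 2163.6 to 2333.1 CPM in WT-Sham and at 723 to 1161 CPM in miKO-tFCI. It was lower in miKO-tFCI vs. WT-tFCI (log2 fold change -0.89, SE 0.17, edgeR adjusted p = 0.00407). *Cebpb*, a dimer partner of ATF4, rose after tFCI by 0.68 in WT mice (SE 0.17, edgeR adjusted p = 0.00590) and by 0.71 in miKO mice (SE 0.17, edgeR adjusted p = 0.00395). The first of these calls was lost without WT-Sham replicate 2 or 3 or without WT-tFCI replicate 3 (edgeR adjusted p = 0.0588 to 0.0685). *Chac1*, which degrades glutathione, was at most at 0.224 CPM in WT-Sham and at 0.366 to 0.838 CPM in WT-tFCI. The call of *Chac1* in WT-tFCI vs. WT-Sham was lost in 10 of the 12 fits with a library left out (edgeR adjusted p = 0.0523 to 0.175). *Bcat1*, a transaminase of branched-chain amino acids, was at most at 0.139 CPM in miKO-Sham and at 21.0, 6.54 and 6.55 CPM in miKO-tFCI.

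Of 13 tested amino acid transporters, 4 were called higher and 2 lower in WT-tFCI vs. WT-Sham (median 0.27), 4 and 1 in miKO-tFCI vs. miKO-Sham (median 0.39), 1 and 3 in miKO-Sham vs. WT-Sham (median -0.17), and 0 in miKO-tFCI vs. WT-tFCI (median -0.04). *Slc1a5*, which imports glutamine and other neutral amino acids, was at 8.05, 7.51 and 7.49 CPM in WT-Sham, at 19.4, 21.2 and 25.5 CPM in miKO-Sham, at 25.4, 23.0 and 20.2 CPM in WT-tFCI and at 29.7, 31.0 and 26.3 CPM in miKO-tFCI. It was higher by 1.52 (SE 0.18, edgeR adjusted p = 2.38e-05) in miKO-Sham vs. WT-Sham and by 1.57 (SE 0.17, edgeR adjusted p = 8.18e-06) in WT-tFCI vs. WT-Sham. *Slc3a2*, the partner chain of the SLC7A11 exchanger, was at 365 to 494 CPM in all libraries and was not called. *Slc7a8*, another partner of SLC3A2, was not called either, at -0.33 in WT-tFCI vs. WT-Sham. *Slc6a9*, a glycine transporter, rose after tFCI in WT mice by 1.89 (SE 0.49, edgeR adjusted p = 0.00693) and in miKO mice by 2.03 (SE 0.50, edgeR adjusted p = 0.00493). Over 1986 of its 5141 exon bases *Slc6a9* overlaps genes on the other strand, so a part of its reads is uncertain. *Slc43a1*, a transporter of large neutral amino acids, was at 2.04 to 2.58 CPM in WT-Sham and at most at 1.02 CPM in miKO-Sham. With each of the 12 libraries left out, its call in miKO-Sham vs. WT-Sham was lost in 4 fits (edgeR adjusted p = 0.0570 to 0.0786). Its call in miKO-tFCI vs. miKO-Sham was lost in 6 (edgeR adjusted p = 0.05001 to 0.106).

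Of 20 aminoacyl-tRNA synthetases, the enzymes that load tRNAs and several of which respond to ATF4, 3 were called higher after tFCI in WT mice (median 0.15) and 6 in miKO mice (median 0.26), and 0 lower. Between genotypes 0 were called in sham (median 0.11) or tFCI mice (median 0.20). *Kars* rose by 0.71 (SE 0.13, edgeR adjusted p = 6.10e-04) in WT mice and by 0.90 (SE 0.13, edgeR adjusted p = 8.64e-05) in miKO mice. *Nars*, the most abundant, was at -0.33 and -0.37 in the same comparisons, and *Vars* at 0.57 and 0.18, all under the fold threshold.

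**Figure D5:**
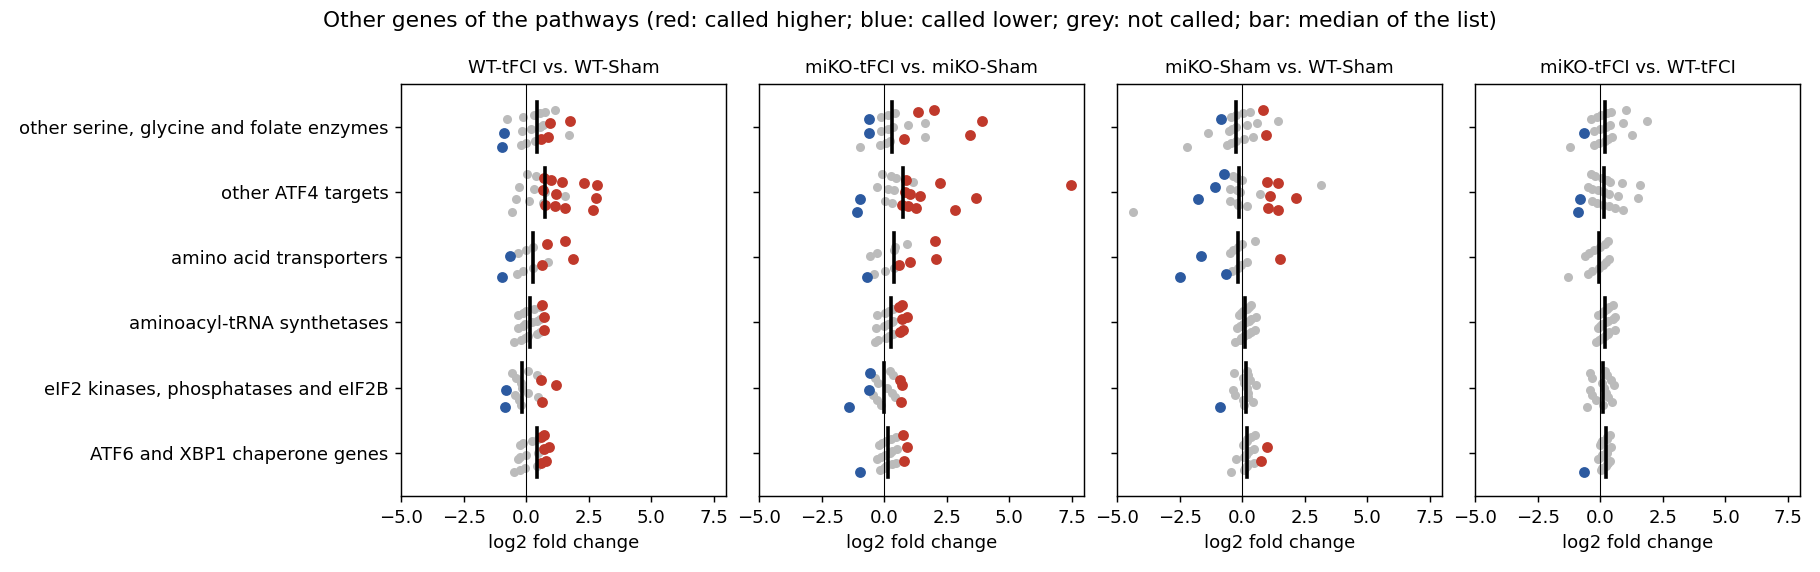
Log2 fold change (x axis) of each tested gene of 6 lists in the 4 comparisons between groups, with red and blue points for genes called higher and lower, grey points for genes not called and a bar at the median of the list. In WT-tFCI vs. WT-Sham the median of the other ATF4 targets was 0.74, and in miKO-tFCI vs. WT-tFCI 0.14.

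Among 11223 genes with a mean of at least 5 CPM, the genes whose batch-adjusted log2 CPM followed *Psat1* most closely over the 12 libraries were *Cxcl16* (Pearson's r = 0.990), *Gins1* (0.989), *Pigs* (0.987), *Cyp4f18* (0.985) and *Ifi204* (0.985). The points share 4 groups, so these values mainly compare group means and are given as a description. *Cxcl16* was at 95.2 ± 3.62, 211 ± 22.8, 292 ± 11.2 and 320 ± 16.8 CPM (SD, n = 3) in WT-Sham, in miKO-Sham, in WT-tFCI and in miKO-tFCI. Among the members, r with *Psat1* was 0.961 for *Mthfd2*, with 51 genes above it, 0.884 for *Slc7a11*, 0.882 for *Shmt2*, 0.853 for *Trib3*, 0.823 for *Asns* and 0.788 for *Psph*. It was 0.103 for *Phgdh*, -0.66 for *Atf4* and -0.78 for *Ddit3*. For *Phgdh*, the enzyme before *Psat1* in the pathway, 5006 of the 11223 genes had a higher r.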

How the data were processed

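RNA of sorted microglia was sequenced (paired-end, SMART-Seq v4 library kit) in 12 libraries, 3 for each combination of genotype (WT or miKO) and surgery (Sham or tFCI). Groups, replicate numbers and sequencing batches (2) were taken from the labels. Per the labels the authors' processing notes name FastQC 0.11.9, Trim Galore, HISAT2 2.2.1, SAMtools and HTSeq 1.99.2 and the builds mm10 and GRCm38.p6. The deposited values are counts per gene, not normalized by the authors, and closing lines that name no gene were left out of library sizes (genes held 30.7% to 38.5% of each library's total). HTSeq's strand setting is not given in the sources used here, so reads of overlapping genes were treated as uncertain.

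Counts were fitted in R 4.3.3 with edgeR 4.0.16 (filterByExpr, TMM, factors 0.864 to 1.11) in 1 quasi-likelihood model with group and batch as terms, in which 16451 genes were tested. A call needed a p adjusted by Benjamini-Hochberg under 0.05 and a log2 fold change over 0.58 in absolute size, while for the interaction the adjusted p sufficed. DESeq2 1.42.0, which the study used, was an alternative. The other alternatives were RLE size factors, no filter or at least 10 counts in every library, no batch term, a replicate block, another batch for miKO-Sham replicate 2, batch 2 alone, each library left out, only the groups compared and, added after the data were seen, miKO-Sham replicates 1 and 2 summed. CPM used TMM library sizes, and log2 CPM a prior count of 2. The steps were tested on simulated data.

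Gene identifiers were matched to GENCODE M21 (55141 of 55401), and promoter sequences were from RefSeq on GRCm38.p6. Named genes were the 10 members, *Hdac3*, the 5 genes most like *Psat1*, and of each pathway list the 2 most abundant genes and the called gene with the largest change in each comparison, plus markers beside a result. In the list of serine, glycine and folate enzymes 2 genes are not reported here and were left out of the list's counts. The members, lists and tests were chosen with earlier results of these data known. Marker lists covered microglia, monocytes and macrophages, border-associated macrophages, neutrophils, B and T cells, astrocytes, neurons, oligodendrocytes, endothelial cells, proliferation, and immediate early and dissociation genes. At 7697864 to 9452222 counts per library, genes with a few counts per library, such as *Asns* in sham mice, are imprecise, and intervals cover the spread between libraries.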

Additional observations from a re-analysis of the deposited data

Results flagged for a closer look

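Among the members and the named genes of the pathway lists, the change with surgery differed between genotypes for 5, so that the interaction (miKO mice minus WT mice, log2) lay apart from 0. The naming rule takes from each list the called gene with the largest interaction, here *Slc1a5*, *Gdf15* and *Sdf2l1*. The number 5 thus follows in part from the rule and is no result about these genes. Of all genes tested, 629 (3.82%) were called in the interaction, and of 22 other ATF4 targets 3, all below 0, of which *Gdf15* was the one named by the rule. Of 13 amino acid transporters 1 was called and of 20 chaperone genes of the endoplasmic reticulum 2, also below 0, and in the other lists 0 were. For *Psat1* it was -2.49, and since the gene was chosen for this difference, no test is given. In edgeR, with p-values adjusted by Benjamini-Hochberg, it was -1.18 for *Slc1a5* (SE 0.24, adjusted p = 0.0124), -0.98 for *Sdf2l1* (SE 0.21, adjusted p = 0.0194), -0.70 for *Herpud1* (SE 0.17, adjusted p = 0.0361) and -1.46 for *Gdf15* (SE 0.36, adjusted p = 0.0368).

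*Slc1a5* and *Gdf15* were lowest in WT-Sham, at 7.49 to 8.05 and 5.15 to 8.72 CPM, and higher in each of the other 3 groups. *Sdf2l1*, a chaperone partner in the endoplasmic reticulum, was at 125 to 185 CPM in WT-Sham and at 238 to 306 CPM in the other libraries. *Herpud1*, a factor of protein degradation at the endoplasmic reticulum, was at 554 to 580 CPM in WT-Sham, 556 to 611 in miKO-Sham, 452 to 500 in WT-tFCI and 274 to 332 in miKO-tFCI. The calls were near the threshold. With each of the 12 libraries left out in turn, that of *Slc1a5* held each time. That of *Herpud1* was lost in 9 cases (edgeR adjusted p = 0.0548 to 0.138), all but without WT-Sham replicate 1, miKO-Sham replicate 3 or miKO-tFCI replicate 3. That of *Gdf15* was lost in 8 cases (edgeR adjusted p = 0.0660 to 0.107), all but without WT-Sham replicate 1, miKO-Sham replicate 3, WT-tFCI replicate 1 or miKO-tFCI replicate 2. That of *Sdf2l1* was lost without WT-Sham replicate 2 or 3 or WT-tFCI replicate 2 or 3 (edgeR adjusted p = 0.0547 to 0.0701). With miKO-Sham replicates 1 and 2 summed as 1 library, the calls of *Gdf15* and *Herpud1* were also lost.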

How the results depend on the processing

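No called value of the 9 genes changed sign under the alternatives run. Of the 9 genes, the number called in miKO-tFCI vs. WT-tFCI was 3, and 1 with no batch term. With each library left out in turn it was 2 to 3 there, 7 in each case in WT-tFCI vs. WT-Sham, 5 to 6 in miKO-tFCI vs. miKO-Sham, 4 to 5 in miKO-Sham vs. WT-Sham and 0 in the interaction. Over all alternatives, 950 of 970 values of the 9 genes kept their direction and their side of the threshold, 9 passed it, 7 no longer did and 4 changed sign, all uncalled interactions of *Asns* and *Atf4*. For *Psat1* 108 of 109 kept their sign, with an interaction of -2.64 to -2.26, and the difference between the tFCI groups was -0.05 without miKO-tFCI replicate 3. At least 10 counts in every library left out *Asns* and *Trib3*. *Shmt2* in miKO-tFCI vs. miKO-Sham passed with that filter (0.59, edgeR adjusted p = 0.00674) and in batch 2 alone (0.58, edgeR adjusted p = 0.0266). Of the values of other named genes, 52 of 2802 passed the threshold, 105 no longer did and 6 moved. The causes were not tested.

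Same-numbered libraries' deviations from the group means correlated at 0.324 to 0.666 between WT-tFCI and miKO-tFCI and at -0.061 to 0.282 between other groups. Within batch 2 the difference between replicates 2 and 3 correlated at -0.033 between the tFCI groups and at most at 0.118 between others, so no pairing beyond the batch, which is in the model, was seen there. With the replicate number as a block, 7, 5, 4, 3 and 0 of the 9 genes were called with surgery in WT mice, with surgery in miKO mice, between genotypes after sham surgery, between genotypes after tFCI and in the interaction, as many as without it.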

Other observations

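Of 20 tested chaperone and folding genes of the endoplasmic reticulum controlled by ATF6 and XBP1, the other branches of the unfolded protein response, 6 were called higher and 0 lower in WT-tFCI vs. WT-Sham (median log2 fold change 0.44), and 3 and 1 in miKO-tFCI vs. miKO-Sham (median 0.15). In miKO-Sham vs. WT-Sham 2 were higher (median 0.19), and in miKO-tFCI vs. WT-tFCI 1 was lower (median 0.23). Of all genes, 20.9% were called higher and 11.7% lower with surgery in WT mice, and 21.9% and 13.9% in miKO mice. Between genotypes the shares of all genes were 8.58% and 6.8% in sham mice and 4.08% and 4.71% in tFCI mice. *Hspa5*, the chaperone BiP, was at 1730.0 to 2608 CPM in WT-Sham and at 1678 to 1881 CPM in WT-tFCI and was not called in any comparison. *Calr*, calreticulin, rose by 0.80 in WT mice after tFCI (SE 0.15, edgeR adjusted p = 7.76e-04). *Sdf2l1* was higher by 1.00 in miKO-Sham vs. WT-Sham (SE 0.15, edgeR adjusted p = 2.99e-04). *Herpud1* was lower in miKO-tFCI vs. miKO-Sham (log2 fold change -0.96, SE 0.12, edgeR adjusted p = 3.47e-05).

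Of 16 tested genes for eIF2, its kinases and phosphatases and its exchange factor eIF2B, which set the translation of *Atf4*, 3 were called higher and 2 lower in WT-tFCI vs. WT-Sham (median -0.17), and 3 and 3 in miKO-tFCI vs. miKO-Sham (median -0.01). In miKO-Sham vs. WT-Sham 1 was lower (median 0.13), and in miKO-tFCI vs. WT-tFCI 0 were called (median 0.12). The shares of all genes called in these comparisons are those given beside the chaperone genes above. *Ppp1r15a*, the stress-induced phosphatase subunit GADD34, was at 845 to 1437 CPM in WT-Sham and at 595 to 732 CPM in WT-tFCI. It fell by 0.85 on the log2 scale in WT mice (SE 0.17, edgeR adjusted p = 0.00136) and by 1.39 in miKO mice (SE 0.17, edgeR adjusted p = 2.39e-05). *Eif2ak2*, the kinase PKR, rose by 1.21 in WT mice (SE 0.16, edgeR adjusted p = 3.63e-05) and by 0.72 in miKO mice (SE 0.16, edgeR adjusted p = 0.00215). *Impact*, an inhibitor of the eIF2 kinase GCN2, was at 63.0 to 65.4 CPM in WT-Sham and at 31.6 to 38.6 CPM in miKO-Sham (log2 fold change -0.88, SE 0.13, edgeR adjusted p = 2.30e-04). *Eif2s1*, a subunit of eIF2, was at 0.59 in WT-tFCI vs. WT-Sham (SE 0.18, edgeR adjusted p = 0.0187), and this call was lost in 6 of the 12 fits with a library left out, which were those without WT-Sham replicate 1 or 2, WT-tFCI replicate 1 or 2, or miKO-tFCI replicate 1 or 3 (edgeR adjusted p = 0.0117 to 0.0995, with an estimate as low as 0.47).

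Markers of other cells differed between the groups as follows, as summed CPM in WT-Sham, in miKO-Sham, in WT-tFCI and in miKO-tFCI. Border-associated macrophage markers (8) were at 574 to 713, 1375 to 1651, 703 to 1021 and 1001 to 2122, of which *Stab1* made up 65.7% to 90.0% in the 4 groups. Without *Stab1* they were at 101 to 129.6, 74.9 to 307, 175 to 269 and 339 to 816. In miKO-Sham vs. WT-Sham 2 of 8 were called higher (median log2 fold change 0.25), against 8.58% of all genes. Neutrophil markers (9) were at 636 to 1360, 1097 to 1134, 490 to 587 and 918 to 1259, and *Csf3r*, which fell after tFCI in both genotypes, made up 22.9% to 68.5%. Without *Csf3r* they were at 49.9 to 816, 336 to 367, 148 to 213 and 687 to 976. In miKO-tFCI vs. miKO-Sham 4 of 9 were called higher and 1 lower (median 1.58), against 21.9% and 13.9% of all genes. In miKO-tFCI vs. WT-tFCI 6 of 9 were called higher (median 2.30), against 4.08% of all genes. There 3 of 8 border-associated macrophage markers (median 1.34) and 3 of 9 tested monocyte and macrophage markers (median 1.30) were also called higher. In each of these lists 0 were called lower in that comparison. Endothelial markers (9) were at 24.0 to 32.5, 14.1 to 29.3, 82.5 to 254 and 160 to 467. Oligodendrocyte markers (10) were at 193 to 221, 152 to 190, 208 to 301 and 220 to 329. Neuronal markers (10) were at 4.82 to 5.17, 13.6 to 18.9, 6.58 to 16.8 and 12.4 to 21.8, and without *Rbfox3*, 76.3% of the sum in miKO-Sham, at 3.37 to 4.41, 2.22 to 4.74, 5.85 to 14.2 and 9.93 to 18.3. B and T cell markers (10) were at 423 to 513, 333 to 431, 267 to 337 and 152 to 162, of which *Ighm* made up 87.6% to 97.3%, while *Cd3e* was at 0 in WT-Sham and WT-tFCI. Their part in the levels of the 10 genes and of the genes of the pathway lists was not tested.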
